A study of Mus musculus with 120 samples.

Results

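The 10 genes described here are known targets of the tumour suppressor p53, followed through single cells of the mouse endolymphatic sac, a blind pouch of the inner ear filled with fluid. They were chosen by symbol, as Cdkn1a, Ccng1, Mdm2, Trp53inp1, Zmat3, Bax, Bbc3, Pmaip1, Phlda3 and Sesn2, and are 10 of the 48371 gene symbols of the expression table. All 10 were present, each as a single entry. Cells came from E14.5 embryos, either wild-type or heterozygous for a Sox9 allele (Sox9Y440X/+) named for a stop codon in place of a tyrosine of SOX9, a transcription factor of the inner ear and of cartilage. Each cell was sequenced on its own by Smart-seq2, which copies whole transcripts of single cells. The labels give neither the number of animals or litters nor the sex, and tie no cell to an animal, so each genotype counted as 1 sample. Cells are not replicates, and no test or p-value is therefore given. Differences between genotypes below are values of these 2 samples, SDs are over cells, and 95% intervals on shares of cells are exact Clopper-Pearson intervals that cover counting error only. Where no cell had a gene, the share allowed is given by a simpler rule, 3 cells of the total.

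The p53 protein is held low in resting cells by Mdm2, which marks it for destruction, and it accumulates after DNA damage, ribosome defects and other stresses. It then binds target sites near genes that stop the cell cycle, feed back on p53, kill the cell through mitochondria, or adjust metabolism and growth signalling. Many of these genes also have inputs that do not need p53: Cdkn1a in particular is a common marker of cells that leave the cell cycle as they differentiate.

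The DNA immediately before a gene start is where such a site can be read directly, so the 220 bases that begin 250 bases before each RefSeq start (GRCm38.p6) were searched for the p53 response element, a pair of adjacent 10-base half-sites. The conserved C and G of each half-site had to be kept, and at most 1 other base could depart from the consensus, which reads the same on both strands. Windows of the 10 genes were taken from all chromosomes except 18, which gave 10 windows for 7 genes. Trp53inp1, Zmat3 and Pmaip1 were not matched. A site was present in 19 of all 32851 windows (0.0578%), and 2 of the 7 genes searched held one, Cdkn1a and Ccng1. Their windows are shown 5′ to 3′ on the strand of the gene, with the matched 20 bases in capitals.
Cdkn1a: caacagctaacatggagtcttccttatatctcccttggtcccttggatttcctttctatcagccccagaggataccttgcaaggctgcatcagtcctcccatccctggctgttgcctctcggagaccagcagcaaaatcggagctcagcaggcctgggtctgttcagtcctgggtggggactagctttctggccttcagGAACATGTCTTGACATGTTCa
Ccng1: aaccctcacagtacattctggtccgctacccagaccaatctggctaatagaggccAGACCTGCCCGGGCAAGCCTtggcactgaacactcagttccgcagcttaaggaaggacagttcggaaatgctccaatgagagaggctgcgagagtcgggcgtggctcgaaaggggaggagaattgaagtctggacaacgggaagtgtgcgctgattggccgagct
The Cdkn1a window lies at chr17:29090729-29090948 on the plus strand, and its site, at chr17:29090928-29090947, ends 31 bases before the upstream start. The site departs from the consensus at position 11, counted from its 5′ end. The window of the second Cdkn1a start held no site. The Ccng1 window lies at chr11:40755317-40755536 on the minus strand, and its site, at chr11:40755462-40755481, ends 175 bases before the start and departs from the consensus at position 5. A match is a stretch of letters in this window and does not show that p53 was bound in these cells. No match in a window says nothing of sites elsewhere in the gene, such as in introns.

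Values are FPKM, fragments per kilobase of transcript and scaled to the fragments sequenced, so that levels can be compared between genes per length. A gene was called detected in a cell at an FPKM of at least 1, and levels were averaged as log2(FPKM + 1). Read counts cannot be had from FPKM, and the depth per cell is unknown. Of 120 cells, 115 had at least 1000 genes per their label and were kept. Clusters computed without the 10 genes fell into epithelial and connective classes. Epithelial cells numbered 56 in wild type and 37 in Sox9Y440X/+, and connective cells 1 and 21. The median epithelial cell had 10 of 14 epithelium markers in wild type and 11 in Sox9Y440X/+. The median connective cell of Sox9Y440X/+ had 0 of these and 8 of 15 mesenchyme markers. No cell had at least 5 markers of both kinds. Other measures also went with the genotype. The median epithelial cell had 3241.5 genes (1209 to 6331) in wild type and 4506 (1959 to 6323) in Sox9Y440X/+. Xist, transcribed in female cells, was found in 34 of 56 epithelial cells of wild type and 0 of 37 of Sox9Y440X/+, so sex and genotype cannot be told apart in the cells that hold it. Clusters were shared unevenly, with cluster 8 made of 10 wild-type cells and cluster 2 of 1 wild-type and 10 Sox9Y440X/+ cells.

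Cdkn1a, the inhibitor of cyclin-dependent kinases also called p21, was the most abundant of the 10 genes and was detected almost entirely in epithelial cells. The gene (ENSMUSG00000023067) lies at chr17:29090976-29100727 on the plus strand in GRCm38. In wild-type epithelial cells its FPKM ran from 0 through a median of 181 to 2308, and it was detected in 46 of 56 cells (82.1%, 69.6% to 91.1%). In Sox9Y440X/+ epithelial cells it ran from 0 through a median of 285 to 2031, with detection in 33 of 37 cells (89.2%, 74.6% to 97.0%). The ranges of the genotypes overlapped almost completely. By mean log2 level Cdkn1a ranked 277 of 48371 symbols in wild-type epithelium. In connective cells of Sox9Y440X/+ it was listed at 0 in 20 of 21 cells and at an FPKM of 2.49 in the other (4.76% detected, 0.120% to 23.8%). The difference of mean log2(FPKM + 1) between genotypes in epithelium was 1.20, from 6.48 (SD 3.52) to 7.68 (SD 3.12), a difference smaller than either SD.

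Within the epithelium, Cdkn1a was highest in the ionocyte-like cluster 1, whose cells carry markers of the acid-base transporting cells of the sac. All 8 wild-type cells there had it, with a mean FPKM of 1139 and a range of 383 to 2308, as did all 5 Sox9Y440X/+ cells, with a mean of 1507 and a range of 354 to 2031. Cluster 2 followed in Sox9Y440X/+, with detection in 10 of 10 cells and a mean of 585. In cluster 3, 10 of 11 cells of each genotype had Cdkn1a, with means of 133 for wild type and 370 for Sox9Y440X/+, and with maxima of 217 and 840. In cluster 6 the means were 236 over 22 wild-type and 203 over 6 Sox9Y440X/+ cells. In cluster 7 they were 259 over 4 wild-type and 464 over 5 Sox9Y440X/+ cells. Cluster 8, of wild-type cells alone, had Cdkn1a in 7 of 10 cells, with a mean of 367 and a median of 2057.5 genes per cell. In the log2 mean, Sox9Y440X/+ minus wild type was 1.13 in cluster 3 and 0.47 in cluster 6. In cluster 1 the log2 means were 10.3 for Sox9Y440X/+ and 9.95 for wild type, and in cluster 7 they were 5.41 and 6.21. Sox9Y440X/+ was thus higher on both scales in clusters 1 and 3, while in clusters 6 and 7 the direction depended on the scale.

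**Figure D1:**
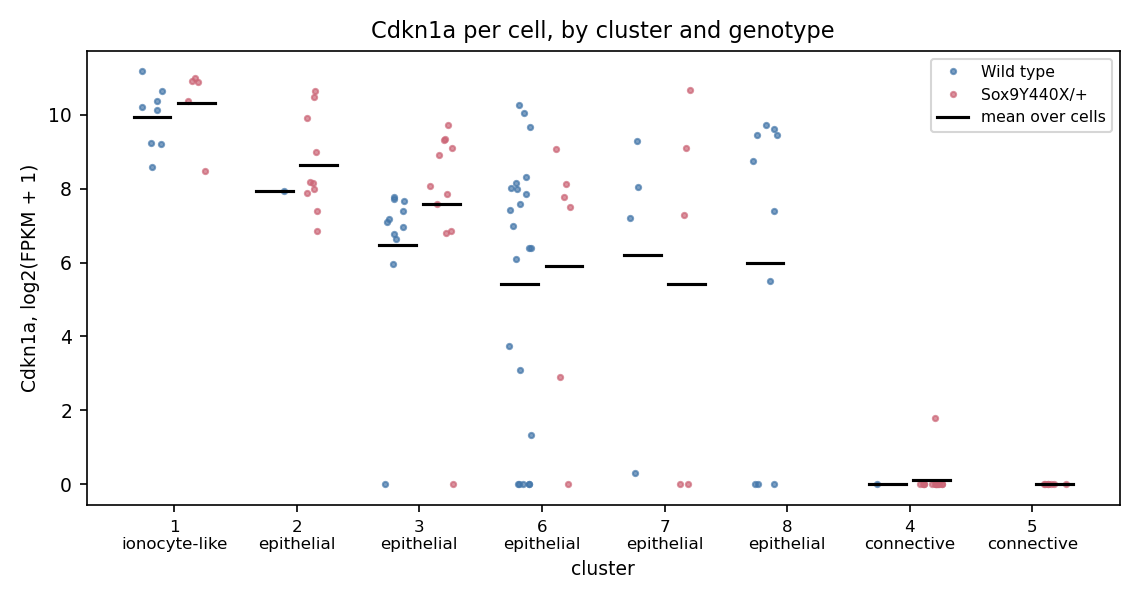
Cdkn1a as log2(FPKM + 1) (vertical axis) in each cell (point), by cluster and genotype, with bars at the mean over cells. The 13 cells of the ionocyte-like cluster 1 all have Cdkn1a at an FPKM of at least 354, and 1 of the 22 connective cells of clusters 4 and 5 reaches an FPKM of 1.

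Ccng1 encodes cyclin G1, a p53 target that acts back on the Mdm2 circuit (ENSMUSG00000020326, chr11:40748552-40755311, minus strand). Wild-type epithelium had it in 14 of 56 cells (25%, 14.4% to 38.4%), with a median FPKM of 0 and a maximum of 58.4. In Sox9Y440X/+ epithelium 19 of 37 cells had it (51.4%, 34.4% to 68.1%), with a median of 1.39 and a maximum of 81.1. Connective cells had it in 1 of 21, at 4.35. A larger share of Sox9Y440X/+ than of wild-type epithelial cells thus had Ccng1. Among the cells with the gene the mean log2 level was lower by 0.30, at 3.82 against 4.12. In cells with at least 4000 genes, 11 of 20 wild-type and 15 of 25 Sox9Y440X/+ cells had it, with mean log2 levels of 2.20 and 2.19. With 2500 to 4000 genes, 3 of 24 and 4 of 10 had it, with 0.64 and 1.78. The difference over all epithelial cells was 0.90.

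Mdm2 encodes the ubiquitin ligase that destroys p53 and is itself switched on by p53 (ENSMUSG00000020184, chr10:117688875-117710758, minus strand). In wild-type epithelium 20 of 56 cells had it (35.7%, 23.4% to 49.6%), with a maximum FPKM of 234. In Sox9Y440X/+ epithelium 18 of 37 cells had it (48.6%, 31.9% to 65.6%), with a maximum of 198, and in connective tissue 4 of 21 (19.05%, 5.45% to 41.9%), with a maximum of 54.2. The genotypes overlapped over most of the range. In the ionocyte-like cluster Mdm2 was present in 5 of 5 Sox9Y440X/+ and 3 of 8 wild-type cells. In cluster 6 it was present in 1 of 6 and 9 of 22. In cells with at least 4000 genes, 9 of 20 wild-type and 16 of 25 Sox9Y440X/+ cells had it, with mean log2 levels of 1.77 and 3.29. With 2500 to 4000 genes, 9 of 24 and 2 of 10 had it, with 2.12 and 1.44. The difference over all epithelial cells was 0.85.

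Trp53inp1 encodes a stress-induced nuclear protein that promotes p53 activity (ENSMUSG00000028211, chr4:11156431-11174379, plus strand). It was found in 10 of 56 epithelial cells of wild type, 10 of 37 of Sox9Y440X/+ and 5 of 21 connective cells. Its mean FPKM was 1.34, 4.52 and 5.31 in these groups, but a single cell held 45.8% of the Sox9Y440X/+ epithelial total and another 72.2% of the connective total. The difference between genotypes was 0.44. Zmat3 encodes an RNA-binding zinc finger protein (ENSMUSG00000027663, chr3:32334792-32366014, minus strand). In the epithelium it was found in 5 of 56 cells of wild type (8.93%, 2.96% to 19.6%) and in 0 of 37 of Sox9Y440X/+, which allows a share of up to 8.11%. In connective cells it was listed at 0 in all 21, which allows up to 14.3%. The limit of 8.11% lies inside the wild-type interval.

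Of the 3 death genes, Bax was common, Bbc3 rare, and Pmaip1 listed at 0 in all 120 cells. Bax encodes the pore-forming protein that opens the outer mitochondrial membrane (ENSMUSG00000003873, chr7:45461697-45466898, minus strand). In wild-type epithelium it was detected in 27 of 56 cells (48.2%, 34.7% to 61.97%), with a median FPKM of 0 and a maximum of 631. In Sox9Y440X/+ epithelium it was detected in 24 of 37 cells (64.9%, 47.5% to 79.8%), with a median of 69.5 and a maximum of 629. Connective cells had it in 12 of 21 (57.1%, 34.02% to 78.2%), with a median of 34.5 and a maximum of 233. Bax was the only one of the 10 genes detected in more than 25% of connective cells. Its difference between genotypes in epithelium was 1.24, the highest of the 10. Among the cells with Bax the mean log2 level differed by 0.18, so most of the 1.24 came with the number of cells that had it.

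Bbc3 encodes PUMA, a BH3-only protein that triggers Bax (ENSMUSG00000002083, chr7:16308393-16318205, plus strand). Epithelial cells with Bbc3 numbered 6 of 56 in wild type and 4 of 37 in Sox9Y440X/+ (10.7% and 10.8%), and 0 of 21 connective cells had it, which allows up to 14.3%. Its difference between genotypes was -0.05. Pmaip1, which encodes the BH3-only protein NOXA, gives no comparison. With 0 of 56 wild-type and 0 of 37 Sox9Y440X/+ epithelial cells, shares of up to 5.36% and 8.11% are allowed, and an exact 0 in FPKM can also be a failed estimate.

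Phlda3 encodes a repressor of AKT signalling (ENSMUSG00000041801, chr1:135766119-135769136, plus strand). In the epithelium 13 of 56 cells of wild type (23.2%, 12.98% to 36.4%) and 13 of 37 of Sox9Y440X/+ (35.1%, 20.2% to 52.5%) had it, as did 4 of 21 connective cells. Its highest FPKM in these groups was 144, 189 and 71.3, and the genotype difference was 0.57. By cluster its direction varied, with 5 of 11 wild-type and 8 of 11 Sox9Y440X/+ cells in cluster 3 against 4 of 22 and 0 of 6 in cluster 6. Sesn2 encodes sestrin 2, which restrains mTORC1 when amino acids are short (ENSMUSG00000028893, chr4:132492032-132510501, minus strand). It was found in 8 of 56 epithelial cells of wild type and 5 of 37 of Sox9Y440X/+ (14.3% and 13.5%) and in 0 of 21 connective cells. Its genotype difference was -0.03. In wild type, 4 of the 8 cells with Sesn2 belonged to the ionocyte-like cluster, and in Sox9Y440X/+ 1 of the 5 did.

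**Figure D2:**
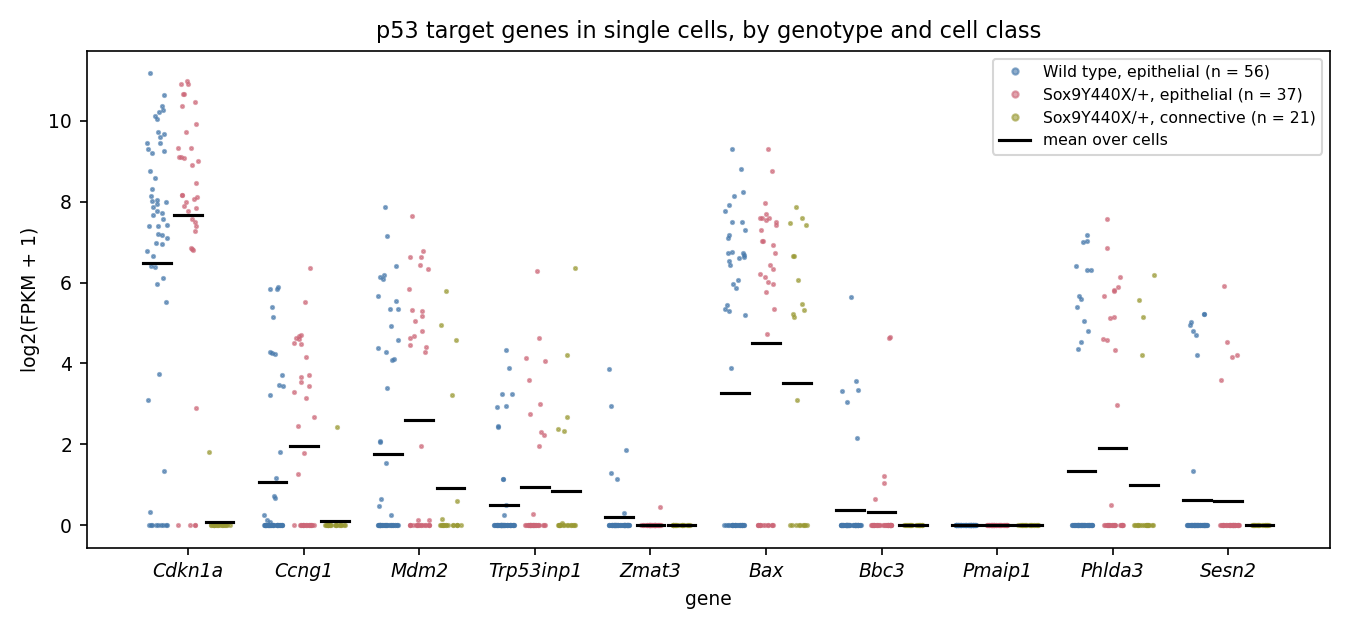
Level of each of the 10 genes as log2(FPKM + 1) (vertical axis) in every cell (point) of wild-type epithelium, Sox9Y440X/+ epithelium and Sox9Y440X/+ connective tissue, with bars at the mean over cells. Most genes are split between cells at 0 and cells well above it, and Cdkn1a is near 0 in all connective cells, the highest being at an FPKM of 2.49.

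The first comparison asks whether p53 targets differ between Sox9Y440X/+ and wild-type epithelium. Genes were compared when 25% or more of the cells in either group had them, which left 5957, among them 6 of the 10 genes: Cdkn1a, Ccng1, Mdm2, Trp53inp1, Bax and Phlda3. Of the 10 genes, 2 (Bax and Cdkn1a, both among the 6 compared) were higher by at least 1 log2 unit in Sox9Y440X/+. None was lower by that much. Of all genes compared, 13.5% were higher and 2.2% lower by at least 1. A difference above 0 was seen in 6 of the 10, below 0 in 3 and of exactly 0 in Pmaip1, and 72.8% of all genes compared were above 0. Of the 6 genes compared, Trp53inp1 and Phlda3 reached the 25% limit in Sox9Y440X/+ alone, where they are more often found, so the limit itself favours their sign. The 4 genes under the limit had differences from -0.19 to 0, with Zmat3 the lowest. The median difference was 0.51 over the 10 genes, which include 4 under the limit. It was 0.87 over the 6 compared, 2 of which the limit favours, and 0.36 over all 5957 compared. Bax ranked 434 of 5957 from the top, Cdkn1a 495, Ccng1 1009 and Mdm2 1143, so many other genes lay above each of them.

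Values within narrower sets of cells bear directly on this. Against the 22 wild-type cells without Xist, Cdkn1a was at 0.61 and Bax at 0.25, and none of the 10 genes reached 1. There the median over the 10 was 0.19, beside 0.18 over all genes compared. In cells with at least 4000 genes, Cdkn1a averaged 7.87 in 20 wild-type and 8.87 in 25 Sox9Y440X/+ cells, and Bax 5.06 and 5.35. Mdm2 lay farther apart there, at 1.77 and 3.29. In cells with 2500 to 4000 genes the order was the opposite for each. Cdkn1a averaged 5.90 in 24 wild-type and 5.32 in 10 Sox9Y440X/+ cells, Bax 2.70 and 2.39, and Mdm2 2.12 and 1.44. Within cluster 3, Cdkn1a was at 1.13 and Bax at -0.12, and within cluster 6, Cdkn1a was at 0.47 and Bax at 2.96.

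**Figure D3:**
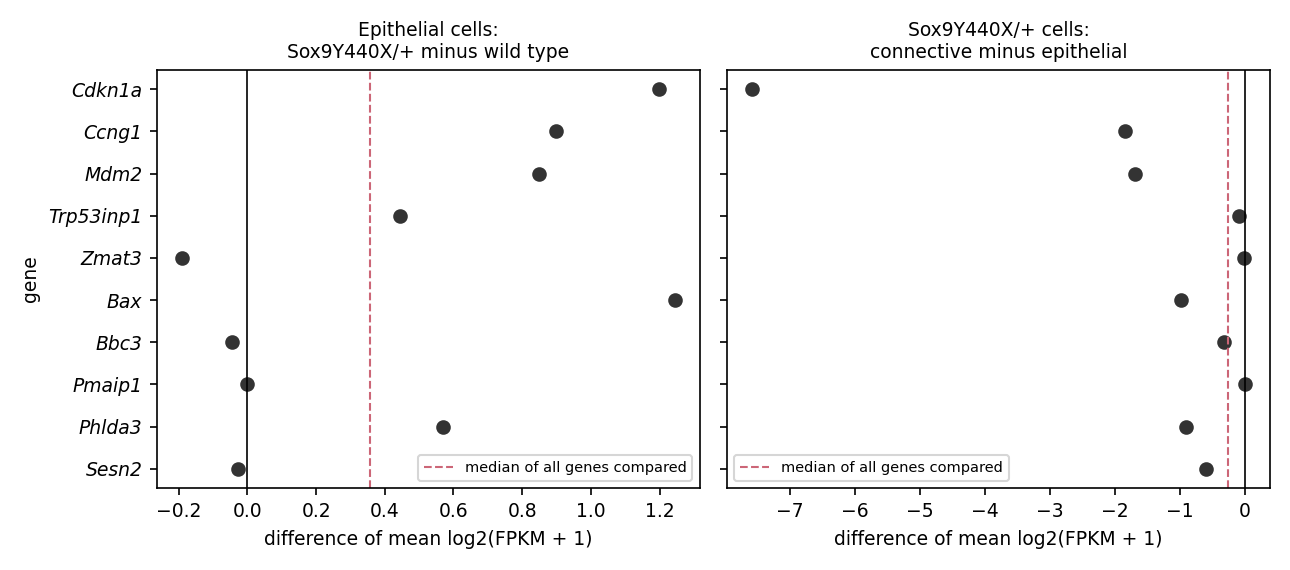
Difference of mean log2(FPKM + 1) (horizontal axis) for each of the 10 genes, between genotypes in epithelial cells (left) and between connective and epithelial cells of Sox9Y440X/+ (right), with a dashed line at the median of all genes compared. Bax (1.24) and Cdkn1a (1.20) lie farthest to the right in the left panel, and Cdkn1a (-7.59) stands far from the other 9 genes in the right panel.

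Transcripts of p53 itself and of its relatives were taken from a list of 18 family members and regulators. Trp53, which encodes p53 (chr11:69580359-69591873, plus strand), was found in 22 of 56 epithelial cells of wild type (39.3%, 26.5% to 53.2%) and 27 of 37 of Sox9Y440X/+ (73.0%, 55.9% to 86.2%). Its difference of 2.03 ranked 46 of 5957 genes. Among the cells with Trp53 the mean log2 levels were 6.03 and 6.01, so the difference lay in how many cells had the transcript. The median epithelial cell had 3241.5 genes in wild type and 4506 in Sox9Y440X/+. Detection of Trp53 was not compared at like numbers of genes or against wild-type cells without Xist. Mdm4, the partner of Mdm2 that silences p53, was found in 16 of 56 and 14 of 37 cells, with a difference of 0.42. Of the 8 list genes compared, 6 were higher and 2 lower, with 2 past 1 log2 unit: Trp53 and Trim28 (1.75), a corepressor that works with Mdm2. Cop1, a p53 ubiquitin ligase listed under its older symbol Rfwd2, was at 0.82, and Trp53bp1, a DNA break response protein, at 0.49. Since p53 is controlled mainly as a protein, transcript levels do not measure its activity.

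A further 40 targets of p53 were listed apart from the 10 genes. Over all 40, 24 were higher and 12 lower in Sox9Y440X/+ epithelium and 4 did not differ, with a median of 0.15. Of the 13 detected widely enough to compare, 10 were higher, near the 72.8% of all genes above 0, and 2 were higher by at least 1, near the 13.5%. The median of the 13 was 0.45, and 3 of them reached the 25% limit in Sox9Y440X/+ alone. The largest differences were in Epha2, a receptor tyrosine kinase (1.60, detected in 12 of 56 and 19 of 37 cells), and Rps27l, a ribosomal protein paralogue whose reads may be shared with its near copy (1.30, 42 of 56 and 33 of 37 cells). Ddb2, which recognises ultraviolet damage in DNA, was at 0.89, detected in 7 and 11 cells. Btg2, an antiproliferative gene, was at 0.82 in mean log2, but in mean FPKM it was 162 for wild type against 148 for Sox9Y440X/+. Genes of the BCL2 family and caspase list gave 6 higher and 1 lower of 7 compared, none past 1, beside the same 72.8% and 13.5%. Their median was 0.39 (0.15 over all 20). Cycs (0.73), Bad (0.59), Bcl2l1 (0.54) and Diablo (0.39) lay farthest from 0 in mean log2. In mean FPKM, Bcl2l1 was 39.6 for wild type against 22.4 for Sox9Y440X/+, and Bad 31.4 against 26.5. More cells of Sox9Y440X/+ had them, at 26 of 37 against 25 of 56 for Bcl2l1 and 19 of 37 against 20 of 56 for Bad. Cycs and Diablo were higher in Sox9Y440X/+ on both scales.

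The lists of stress programmes that share targets with p53 gave different counts. Of all genes compared, 72.8% were above 0, 13.5% were higher by at least 1 and 2.2% were lower by that much. The integrated stress response list had 4 higher and 4 lower of 8 genes compared, with a median of 0.08 (0.043 over all 16). It ranged from Asns, the asparagine synthetase (1.63), Atf3 (0.88) and Slc3a2 (0.72) to Atf4 (-0.51). The immediate-early list had 14 higher and 4 lower of 18, with 3 at or above 1, 1 at or below -1 and a median of 0.68 (0.51 over all 24). Cyr61 (3.46), Dusp1 (2.78) and Ier3 (1.46) were higher and Socs3 (-1.24) lower. Proliferation genes had 2 higher and 4 lower of 6, with a median of -0.36 (-0.035 over all 24), from Pcna (0.81), a replication clamp that p53 can also activate, through Mcm4 (-0.49) and Cdk1 (-0.86) to Mcm2 (-1.21). Of 9 broadly expressed reference genes 4 were higher and 5 lower, with a median of -0.12. Across cells, Cdkn1a and the number of immediate-early genes detected had a Spearman correlation of -0.04 in 56 wild-type and 0.21 in 37 Sox9Y440X/+ epithelial cells, given as a description.

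The second comparison sets connective against epithelial cells within Sox9Y440X/+, since wild type gave a single connective cell. Of the 10 genes, 9 had lower means in connective cells and Pmaip1 was at 0 in both classes. Of these, 3 (Cdkn1a, Ccng1 and Mdm2) were lower by at least 1 log2 unit, against 24.9% of the 6620 genes compared. None was higher by 1, against 12.9%, and none had a difference above 0, against 40%. Of the 6 genes that could be compared with all others, 5 reached the 25% limit in epithelium alone, which favours a lower value in connective cells. Bax reached it in both classes. Cdkn1a differed by -7.59, from 7.68 in epithelium to 0.09 (SD 0.39) in connective cells, the tenth lowest value of all 6620 genes. Ccng1 was at -1.85, Mdm2 at -1.69, Bax at -0.99, Phlda3 at -0.91 and Trp53inp1 at -0.10. The median was -0.76 over the 10 genes and -1.34 over the 6, 5 of which the limit favours, beside -0.27 over all genes compared. Leaving out 1 connective cell that had 9 of 9 endothelium markers left Cdkn1a at -7.59 and the median over the 10 genes at -0.71.

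Differences in detected genes went with this comparison too, the median being 3593 genes in connective and 4506 in Sox9Y440X/+ epithelial cells. In cells with at least 4000 genes, Cdkn1a was detected in 0 of 6 connective and 25 of 25 epithelial cells of Sox9Y440X/+, and Bax in 6 of 6 and 20 of 25, with mean log2 levels of 6.31 and 5.35. Cdkn1a was thus as low in connective cells with many genes as in the others, whereas Bax was not lower there. Bax also differed between the connective clusters, with 11 of 14 Sox9Y440X/+ cells in cluster 4 and 1 of 7 in cluster 5, whose median cells had 3959 and 2560 genes. The lone wild-type connective cell, with 4887 genes, had Bax at 56.97 and Mdm2 at 45.2, and the other 8 genes were listed at 0 in it. Ionocyte markers were detected in no connective cell.

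The 40 other p53 targets were split between the classes, with 17 higher and 18 lower in connective cells, 5 not differing and a median of 0. Of the 13 compared, 11 were lower, 8 of them by at least 1, with a median of -1.27, but 9 of the 13 reached the 25% limit in epithelium alone. Of all 6620 genes compared, 40% were above 0, 3970 were below 0, and 24.9% were lower by at least 1. These shares are the background for each list here. Btg2 was at -5.54, detected in 36 of 37 epithelial and 5 of 21 connective cells, Epha2 at -2.12, Ddb2 at -1.20 and Rps27l at -0.61. Trp53 was at -0.90, with detection in 11 of 21 connective cells, and Mdm4 at 0.11. Over all genes measured, the integrated stress response list was lower in 13 of 16, with a median of -0.21, and the immediate-early list in 17 of 24, with a median of -0.60. Proliferation genes went the other way: all 24 had higher means in connective cells, with a median of 1.72. Of these, 17 reached the 25% limit in connective cells alone and 3 in both classes. The median cell had 7 of 24 proliferation genes in connective tissue, 3 in Sox9Y440X/+ epithelium and 2 in wild-type epithelium. Across cells within a group, the Spearman correlation of Cdkn1a with the number of proliferation genes was 0.03 in 56 wild-type and -0.10 in 37 Sox9Y440X/+ epithelial cells. These values do not hold the number of genes per cell constant. That number correlated with proliferation genes at 0.68 in wild type and 0.50 in Sox9Y440X/+, and with Cdkn1a at 0.15 and 0.26. The contrast between low Cdkn1a and many proliferation genes was thus seen between the cell classes. Among epithelial cells with like numbers of genes it was not tested.

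The third question is whether the 10 genes are found in the same cells. The number detected per cell averaged 2.66 (SD 1.61, range 0 to 7) in wild-type epithelium, 3.41 (SD 1.57, range 1 to 7) in Sox9Y440X/+ epithelium and 1.29 (SD 1.23, range 0 to 4) in connective cells. At least 3 were found in 27 of 56 wild-type (48.2%, 34.7% to 61.97%), 28 of 37 Sox9Y440X/+ (75.7%, 58.8% to 88.2%) and 3 of 21 connective cells (14.3%, 3.05% to 36.3%). This number followed the number of genes detected in the cell, with a Spearman correlation of 0.76 in wild-type epithelium, 0.59 in Sox9Y440X/+ epithelium and 0.70 in connective cells. In epithelial cells with at least 4000 genes, the averages were 4 in 20 wild-type and 4.08 in 25 Sox9Y440X/+ cells. With 2500 to 4000 genes they were 2.33 in 24 and 2.20 in 10 cells, and with 1000 to 2500 genes 1.08 in 12 and 1 in 2 cells. Between genotypes the averages were therefore close within each of these ranges, and connective cells were lower in each, at 2, 1.17 and 0.33. The ranges do not match the genotypes exactly: from 4000 genes up, the median was 5268.5 genes in wild type and 4909 in Sox9Y440X/+. In cells with 2500 to 5500 genes the averages were 2.81 in 37 wild-type and 3.30 in 27 Sox9Y440X/+ cells, whose medians were 3445 and 4232 genes.

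**Figure D4:**
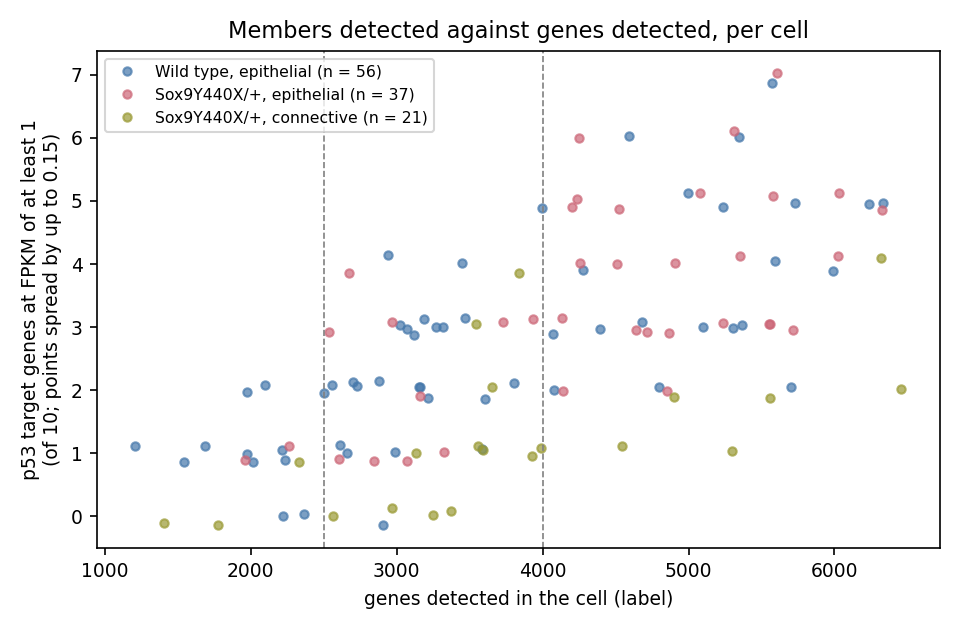
Number of the 10 genes at an FPKM of at least 1 (vertical axis) against the number of genes detected per label (horizontal axis), 1 point per cell, with dashed lines at 2500 and 4000 genes. Wild-type and Sox9Y440X/+ epithelial points lie along the same rise, with means of 4 and 4.08 to the right of 4000 genes, and connective points lie lower, with a mean of 2 there.

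Pairs of genes showed little tendency to be high in the same cells. In wild-type epithelium 4 of the 10 genes (Cdkn1a, Ccng1, Mdm2 and Bax) were present in 25% or more of cells, and the Spearman correlations of their 6 pairs over 56 cells had a median of 0.11 (-0.19 to 0.33), beside 0.06 over all pairs of 4623 genes. In Sox9Y440X/+ epithelium, Trp53inp1 and Phlda3 joined them, and the 15 pairs over 37 cells had a median of 0.04 (-0.12 to 0.34), beside 0.04 over all pairs of 5550 genes. With the number of genes per cell held constant by partial rank correlation, the medians were -0.0014 and -0.0053. These correlations are descriptions of sparse values that share a cell's library, and ones of this size are no finding.

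All 14 wild-type cells with Ccng1 had Cdkn1a as well (Spearman correlation 0.33), and 17 of the 19 Sox9Y440X/+ cells with Ccng1 did (0.04). Of the cells with Mdm2, 16 of 20 in wild type and 17 of 18 in Sox9Y440X/+ had Cdkn1a, with correlations of -0.19 and 0.21. Of the cells with Bax, 23 of 27 and 23 of 24 had Cdkn1a, with 0.05 and -0.12. With Cdkn1a in 82.1% and 89.2% of all cells, such overlaps lie near its general share. The highest of the 15 pairs in Sox9Y440X/+ was Trp53inp1 with Phlda3 (0.34), found together in 6 cells. The cells richest in these genes were often ionocyte-like: of the 3 cells in each genotype with at least 6 of the 10 genes, 2 belonged to cluster 1, and the mean per cell in that cluster was 4.63 in wild type and 5.20 in Sox9Y440X/+. The median cell of cluster 1 had 4912.5 genes in wild type and 4249 in Sox9Y440X/+, beside 3241.5 and 4506 over all epithelial cells. Epithelial cells with at least 4000 genes averaged 4 and 4.08 of the 10.

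**Figure D5:**
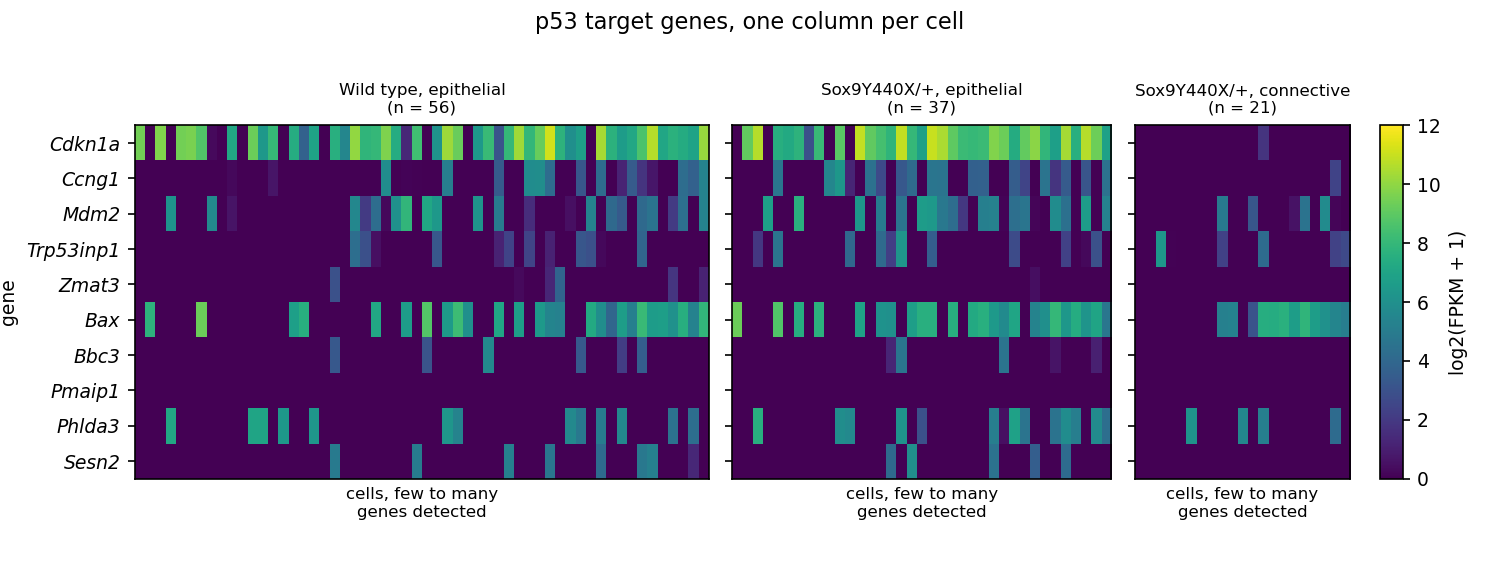
Level of each of the 10 genes (rows) as log2(FPKM + 1) (colour) in each cell (columns), by group, with cells ordered from few to many genes detected. Cdkn1a fills most epithelial columns and is dark in connective cells, Pmaip1 is at 0 throughout, and the rarer genes are scattered, more often toward the right of each panel.

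Genes whose level followed Cdkn1a most closely across epithelial cells were ranked by the Spearman correlation averaged over the genotypes, among 4215 genes present in 25% or more of the cells in each. Cd24a, a surface glycoprotein, led with 0.50, followed by Gsn, the actin-severing gelsolin (0.45), Prkcd, a protein kinase C (0.44), Hebp2, a haem-binding protein (0.44), and Pam, a peptide-amidating enzyme (0.43). None of these is on the lists of p53 targets used here. Of the 10 genes, Ccng1 came at rank 555 (0.19), Mdm2 at 2483 (0.01) and Bax at 3024 (-0.03). In connective cells the 5 leading genes were not all as rare as Cdkn1a: Gsn was detected in 14 and Cd24a in 12 of 21 cells, while Prkcd and Pam were detected in 3 each and Hebp2 in 1.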

How the data were processed

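Single cells of the endolymphatic sac were profiled by Smart-seq2, per the labels. The authors deposited 1 table of FPKM values with 48555 entries for 120 cells. Tools listed in the submitters' processing notes are Cufflinks, HISAT2, HTSeq and SAMtools 0.1.18, with the build mm10 and no roles or order. Settings are not stated in the labels. FPKM has no read counts, so depth is unknown, and without stranded counting antisense transcripts cannot be told apart: GENCODE M21 has AC167363.2 over Cdkn1a exons, and on the same strand Gm45808 over Bax exons.

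Here, entries were summed by symbol and cells with under 1000 genes left out. Cells were clustered (Ward linkage, 15 principal components, 1500 most variable genes without the 10 p53 targets, 8 clusters) and named from 12 marker lists, of which 104 of 105 genes were matched. Doublets were not removed with a caller. Mean log2(FPKM + 1), with a pseudocount of 1, was compared between groups without a test, which understates differences of low genes. The script was tested on simulated data. Named were the 10 genes, Trp53, Mdm4, up to 4 genes of each list by largest difference, and the 5 genes most like Cdkn1a. The members, lists and clusters shown were chosen with earlier results of these data known. Gene positions came from GENCODE M21 (GRCm38) by identifier without version, and promoters from RefSeq. Python 3.11.15, numpy 2.4.6, pandas 2.3.3 and scipy 1.17.1 were used.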

Additional observations from a re-analysis of the deposited data

Results flagged for a closer look

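Among the 5 cells with under 1000 genes, which the comparisons leave out, Mdm2 reached an FPKM of 1296 in Sox9Y440X/+ cell 21, above the highest wild-type value kept, 234. That cell had 460 genes and, of the other 9 p53 targets, only Cdkn1a, at 9.69. Of the other 4 such cells, 1 Sox9Y440X/+ cell had Bax at 155, the wild-type cell had Bbc3 at 4.57, and 2 had none of the 10 genes. No cause for the high Mdm2 value was tested.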

How the results depend on the processing

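No paired analysis was possible because cells carry numbers that pair nothing and each genotype is 1 sample. Leaving out cluster 8, staying within cluster 3 or 6, and leaving out the cell with endothelium markers were chosen after seeing the data, as was the limit of 1.5 times used to say that a value moved. Values of 4 genes under 25% detection rest on few cells, and FPKM without counts limits what any low value shows.

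The median genotype difference over the 10 genes in epithelium (0.51) was 0.19 against wild-type cells without Xist, 0.32 without the ionocyte-like cluster, 0.30 without cluster 8, 0.23 within cluster 3 and -0.074 within cluster 6, where it changed sign. It was 0.87 at a pseudocount of 0.1 and 0.20 at 10. Over all genes compared, the median (0.36) was 0.18 against wild-type cells without Xist, 0.41 without the ionocyte-like cluster and 0.21 without cluster 8. That median was -0.084 within cluster 3, 0.063 within cluster 6, 0.64 at a pseudocount of 0.1 and 0.12 at 10. The count of genes higher by at least 1 (2) was 1 in cells with at least 2000 genes, in cells with 2500 to 5500 genes, and without cluster 8, 0 against wild-type cells without Xist and at a pseudocount of 10, and 5 at a pseudocount of 0.1. By the log2 ratio of mean FPKM it was 1, and that gene was Trp53inp1 (1.76), with Cdkn1a at 0.62 and Bax at 0.51. The difference in genes detected per cell (0.74) was 0.49 in cells with 2500 to 5500 genes, 0.45 against wild-type cells without Xist, 0.38 without cluster 8, 0.27 within cluster 3 and -0.20 within cluster 6. Bax was at -0.12 within cluster 3. The connective minus epithelial median (-0.76) was -0.50 with no minimum of genes, where clustering anew also left 18 connective cells in place of 21, -1.15 and -0.33 at pseudocounts of 0.1 and 10, and -1.79 as the log2 ratio. The median pair correlation in wild-type epithelium (0.11) was 0.014 in cells with 2500 to 5500 genes. Of 30 recomputed genotype differences of Bax and Cdkn1a, 21 lay within 1.5 times the reported value, 8 lay beyond it and 1 changed sign. Of 30 recomputed connective differences of Cdkn1a, Ccng1 and Mdm2, 23 lay within that limit, 7 beyond it and none changed sign. Of 119 genotype differences of the other 8 genes, 41 moved, 7 of them changing sign: Phlda3 (0.57 as reported, -0.16 against wild-type cells without Xist, -1.22 within cluster 6), Mdm2 (-1.04 within cluster 6), Bbc3 and Sesn2. Of 66 connective differences of the other 7 genes, 14 moved and 1 changed sign, Trp53inp1 (0.23 as the log2 ratio).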
